A study of Mus musculus with 6 samples.

Results

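The genes described here are 9 targets of the transcription factor p53: Phlda3, Cdkn1a, Mdm2, Ccng1, Trp53inp1, Gadd45a, Sesn1, Sesn2 and Bax. They were followed in quadriceps muscle of C57/Bl6 mice aged 2 months through every array probe set that the platform annotation pairs with one of them alone. In all, 8 of the 9 genes had such probe sets, 18 together, among 18193 named genes and 45037 probe sets. The level of Bax was not analysed here. The list was chosen by the log2 intensities of Phlda3 in these 2 groups, which were already known, so all differences between the groups are descriptions and support nothing by themselves. The Pofut1 knockout group held 3 samples carrying the skeletal α actin cre transgene and Pofut1flox/flox alleles. In the Pofut1 control group, 3 samples carried this cre but left Pofut1 wild type. Pofut1 encodes the enzyme that puts O-linked fucose on EGF-like repeats of Notch receptors and other proteins. The cre is driven by a promoter of muscle fibres, so vessel, immune and connective tissue cells in the sample may keep Pofut1. In whole muscle, fewer cells of a type and less RNA per cell cannot be told apart.

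p53 is a stress-activated transcription factor that is kept low in healthy tissue because Mdm2, itself a p53 target, marks it for degradation. Once stabilised, it raises genes that stop the cell cycle, start cell death, repair DNA or slow growth signalling. Several of these genes also answer to other regulators in muscle, where FoxO factors, glucocorticoids and denervation act on Cdkn1a, Gadd45a and the sestrins.

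Unlike the other arrays, the array labelled control replicate 3 had log2 values that correlated with the others at only 0.928 to 0.937, where each other array reached 0.981 or more with at least one of the rest. The 3' over 5' ratio of Gapdh on it, a sign of RNA and cDNA length, was 10.5. Knockout replicate 2 had 3.70, and the ratio in the other arrays was 1.73 to 1.97. Knockout replicate 2 and control replicate 2 had the Xist and Eif2s3y pattern of females, and the rest that of males. Pofut1's brightest probe set read 220.1, 231.1 and 194.3 in the knockout samples, against 301.4, 379.8 and 90.6 in the control samples, and the lowest of the 6, on the array labelled control replicate 3, ran against its label. Its log2 difference was -0.02 ± 0.51. Dimmer Pofut1 sets had -0.11 ± 0.10, above background on no array, and -0.23 ± 0.15, above background on 1 array. The groups overlapped in each Pofut1 set. The array's own control features include cre. The bacterial bioB, bioC and bioD probe sets read 70.0 or less on every array, whereas 1 of the 3' probe sets for cre read 3394, 2761 and 3445 in the knockout samples, against 4990, 4937 and 3598 in the control samples. A second 3' set for cre read 3272, 2577 and 3274 in the knockout samples, against 5184, 4871 and 3003 in the control samples, with overlap, and in both 5' sets the lowest of the 6 arrays was that labelled control replicate 3. All 10 of 10 listed muscle fibre genes were above background, with summed intensities of 90932 to 94573 in the knockout and 84442 to 88783 in the control samples, and Acta1, skeletal α actin itself, had a log2 difference of 0.13 ± 0.06.

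The promoters of the targets differed in how many p53 half-sites they hold. Sequences of the 250 bases before an annotated start were taken from RefSeq (GRCm38.p6), which held 10 starts of 8 of the genes, Bax included and Trp53inp1 not. They were searched on both strands for the consensus p53 half-site of 10 bases, whose strands read alike. At least 1 half-site stood in 6 of the 10, and in 7.13% of 32851 promoters of all genes. A full site, 2 half-sites at most 13 bases apart, stood in 1 of the 10 and in 0.0639% of all. The gene with the widest gap between groups, Phlda3, and 3 of its companions are shown, with half-sites in capitals.
Phlda3 (chr1:135765835-135766084, plus strand): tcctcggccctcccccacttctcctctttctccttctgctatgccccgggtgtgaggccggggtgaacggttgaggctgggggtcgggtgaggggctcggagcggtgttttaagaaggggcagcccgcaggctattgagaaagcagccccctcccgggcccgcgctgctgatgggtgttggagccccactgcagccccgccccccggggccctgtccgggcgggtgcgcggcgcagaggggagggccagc
Cdkn1a (chr17:29090729-29090978, plus strand): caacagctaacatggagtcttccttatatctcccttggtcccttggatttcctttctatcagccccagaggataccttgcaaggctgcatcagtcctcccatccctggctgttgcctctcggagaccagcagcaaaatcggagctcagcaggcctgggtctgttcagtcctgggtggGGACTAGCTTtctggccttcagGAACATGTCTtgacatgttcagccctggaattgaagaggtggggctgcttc
Mdm2 (chr10:117710759-117711008, minus strand): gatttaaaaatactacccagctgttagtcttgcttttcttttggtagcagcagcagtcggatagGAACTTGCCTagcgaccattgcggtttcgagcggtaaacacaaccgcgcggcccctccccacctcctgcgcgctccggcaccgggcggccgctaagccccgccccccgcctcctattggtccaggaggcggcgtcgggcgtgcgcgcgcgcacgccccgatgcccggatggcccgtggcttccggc
Ccng1 (chr11:40755287-40755536, minus strand): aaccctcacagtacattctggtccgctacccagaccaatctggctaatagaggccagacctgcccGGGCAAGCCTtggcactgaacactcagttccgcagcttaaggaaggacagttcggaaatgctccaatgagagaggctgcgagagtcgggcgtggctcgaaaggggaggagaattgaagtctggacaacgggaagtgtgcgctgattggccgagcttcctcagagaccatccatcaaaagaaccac
No half-site stood in the Phlda3 window, which says only that these letters are not within it. The upstream start of Cdkn1a held the full site, beginning 73 and 51 bases before the start, and its second start held none. Mdm2 had 1 half-site beginning 186 bases before its start, and Ccng1 had 1 at 185 bases. A match is a description of letters, not of binding.

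Phlda3 was the p53 target whose intensity differed most between the groups. It encodes a small protein made of little more than a pleckstrin homology domain, which competes with the kinase Akt for membrane lipids and so holds Akt back. Its single probe set read 290.5, 242.3 and 407.6 in the knockout samples, against 1072, 1149 and 718.4 in the control samples. Every knockout sample lay below every control sample, and the nearest pair were knockout replicate 3 and the array labelled control replicate 3. The means were 313 ± 85.0 in the knockout and 980.1 ± 229.9 in the control samples (SD, n = 3 each). The difference of the log2 means was -1.65 ± 0.28 (SE), or 3.14-fold lower in the knockout, and without the array labelled control replicate 3 it was -1.86. Of 11098 genes above background in a group, 3 had a log2 difference this low, Phlda3 included. Limma called 0 of 45037 probe sets (0.0%) at an adjusted p under 0.05, Phlda3 included. At an unadjusted p under 0.05 it gave 883 probe sets (1.96%). When each array was weighted by its quality, limma called 4 probe sets, with Phlda3 among them (adjusted p = 0.0486 in limma). The array labelled control replicate 3 had a weight of 0.107 there. Under every other alternative the adjusted p of Phlda3 was 0.376 or more in limma. Phlda3 was chosen for its difference, so the call is no support.

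**Figure D1:**
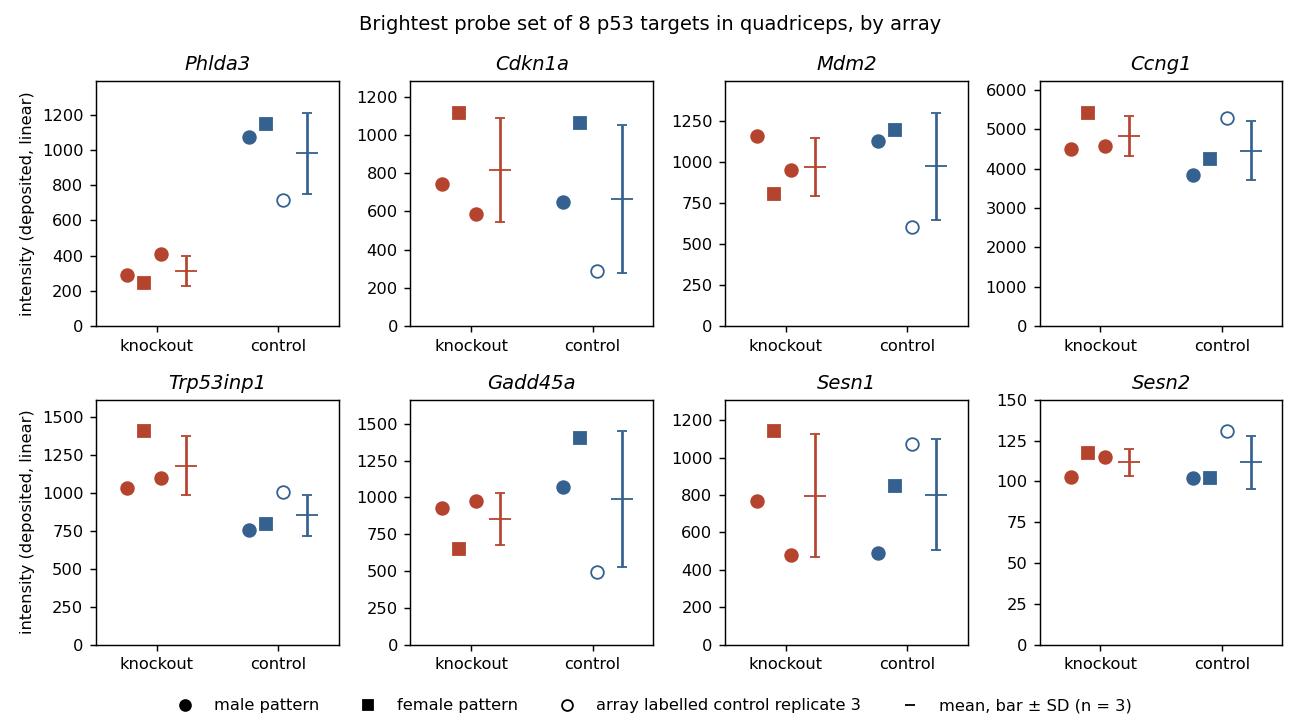
Intensity of the brightest probe set of each of 8 p53 targets on a linear axis from 0, with the 3 knockout arrays left of the 3 control arrays; squares are arrays with a female pattern, the open circle is the array labelled control replicate 3, and bars are the mean ± SD. Phlda3 and Trp53inp1 are the genes whose groups do not overlap, with Phlda3 at 242.3 to 407.6 in the knockout and 718.4 to 1149 in the control samples.

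Among the 18 probe sets the groups did not overlap in 2, those of Phlda3 and Trp53inp1, where 7.66% of all probe sets had no overlap. Over the brightest probe set of every gene, 5.7% had no overlap with the knockout lower, as Phlda3 did, and 3.33% with the knockout higher, as Trp53inp1 did. Limma called 0 of the 18, as it called 0.0% of all. Of the 18, 12 were above the background intensity of 66.9 on all arrays, 5 on some, and the third Mdm2 probe set on none. The brightest probe sets of 5 genes had a higher and those of 3 a lower mean in the knockout. Their median log2 difference was 0.03, beside -0.01 over all genes.

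Mdm2 and Ccng1, the feedback arm of the pathway, had overlapping values in the groups over the 6 arrays. Mdm2 is the ubiquitin ligase that limits p53. Its brightest probe set read 1155, 801.3 and 952.3 in the knockout samples, against 1125, 1194 and 600.6 in the control samples. The log2 difference was 0.04 ± 0.30, and the ranges overlapped. The array labelled control replicate 3 was the lowest of the 6, and without it the difference was -0.27. The second Mdm2 set had 0.17 ± 0.32 over all arrays, with overlap. Without the array labelled control replicate 3 it had -0.17, with no overlap. Ccng1 encodes cyclin G1, which brings a phosphatase to Mdm2. Its brightest probe set read 4503, 5415 and 4566 in the knockout samples, against 3834, 4258 and 5289 in the control samples, a log2 difference of 0.12 ± 0.14. The highest control value was that of the array labelled control replicate 3. In a second Ccng1 probe set the same array had the lowest value, 724.7, against 1110 to 1870 in the knockout samples and 1854 and 2040 in the other control samples. The log2 difference of that set was 0.03 ± 0.41 over 6 arrays and -0.45 without the array. The third Ccng1 set had -0.21 ± 0.19, so probe sets of this gene disagreed in sign.

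Cdkn1a and Gadd45a, the arrest genes, varied more within groups than between them. Cdkn1a encodes p21, an inhibitor of cyclin-dependent kinases. It read 745.9, 1116 and 586.3 in the knockout samples, against 648.3, 1062 and 289.8 in the control samples. The highest value of each group was that of its array with a female pattern, and the groups overlapped. The log2 difference was 0.43 ± 0.48, and -0.08 without the array labelled control replicate 3, which was lowest. The dimmer Cdkn1a probe set read 133.9, 150.6 and 142.0 in the knockout samples, against 112.1, 214.7 and 57.6 in the control samples, with the same order of arrays in the control group. Gadd45a, which binds the sliding clamp PCNA and takes part in repair and arrest, read 926.8, 650.7 and 978.6 in the knockout samples, against 1068, 1402 and 492.6 in the control samples. The groups overlapped, with the lowest and the highest value both in the control group, and the log2 difference was -0.11 ± 0.39. Without the array labelled control replicate 3 all knockout values of Gadd45a lay below both control values, with a difference of -0.55. In that 5-array comparison 7 of the 18 probe sets had no overlap, beside 22.5% of all probe sets.

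Trp53inp1 had higher values in every knockout sample than in any control sample. It encodes a stress-induced protein that acts with p53 in cell death and also in autophagy. Its brightest probe set read 1035, 1405 and 1102 in the knockout samples, against 752.9, 798.0 and 1004 in the control samples. The gap between the groups was narrow, since knockout replicate 1 and the array labelled control replicate 3 differed by less than the SD of either group. The log2 difference was 0.47 ± 0.19, and 0.59 without that array. Over the 6 arrays Trp53inp1 ran opposite to Phlda3, with Pearson r = -0.90 on log2 values, as a description of arrays that share the 2 groups. The second probe set was above background on 3 arrays, with a log2 difference of 0.25 ± 0.26.

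The sestrins, which are stress-induced brakes on the growth kinase complex mTORC1, had log2 differences of both signs. The brightest Sesn1 probe set read 770.5, 1140 and 480.0 in the knockout samples, against 487.3, 846.7 and 1073 in the control samples, and the log2 difference was -0.02 ± 0.40. The groups covered the same range. A second Sesn1 set read 528.7, 794.0 and 493.5 in the knockout samples, against 682.1, 938.0 and 778.9 in the control samples, with a difference of -0.42 ± 0.24. The third had 0.05 ± 0.39, and the fourth, above background on 1 array, had 0.24 ± 0.25. Sesn2 was dim, at 102.4, 117.7 and 115.1 in the knockout samples, against 102.2, 102.2 and 130.6 in the control samples, a log2 difference of 0.01 ± 0.20. Its other probe set was above background only on the array labelled control replicate 3, at 110.0.

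The array with a female pattern was the highest of its group in both Cdkn1a probe sets and in 2 of the 4 Sesn1 sets. This contrast was added after the data were seen, and Cdkn1a and Sesn1 were picked for that order of arrays. The differences that follow are therefore descriptions. With genotype in the limma fit, the female minus male log2 difference was 1.02 ± 0.37 for the brightest Cdkn1a set and 0.77 ± 0.41 for the dimmer one (2 arrays against 4). For Sesn1 it was 0.57 ± 0.40 for the brightest set, 0.50 ± 0.20 for the second, 0.94 ± 0.24 for the third and -0.02 ± 0.29 for the fourth. In the brightest Sesn1 set the array labelled control replicate 3, with a male pattern, was above control replicate 2. None of the 6 passed (adjusted p = 1 for each in limma), and the term called 3 of 45037 probe sets (0.00666%). Without the array labelled control replicate 3 the differences were 0.74 ± 0.16 for the brightest Cdkn1a set and 0.86 ± 0.23 for the brightest Sesn1 set, with an adjusted p of 0.777 for both in limma and 9 probe sets called (0.02%), and -0.18 ± 0.24 for the fourth Sesn1 set. For Phlda3 the same term over all 6 arrays was -0.06 ± 0.32. For the brightest sets of Trp53inp1, Ccng1, Mdm2, Gadd45a and Sesn2 it was 0.14, 0.09, 0.08, 0.20 and -0.03. The 2 arrays with a female pattern also share a replicate number, so sex and replicate number cannot be told apart. Knockout replicate 2, 1 of the 2, also had the raised Gapdh ratio of 3.70, whose part in these differences was not tested.

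**Figure D2:**
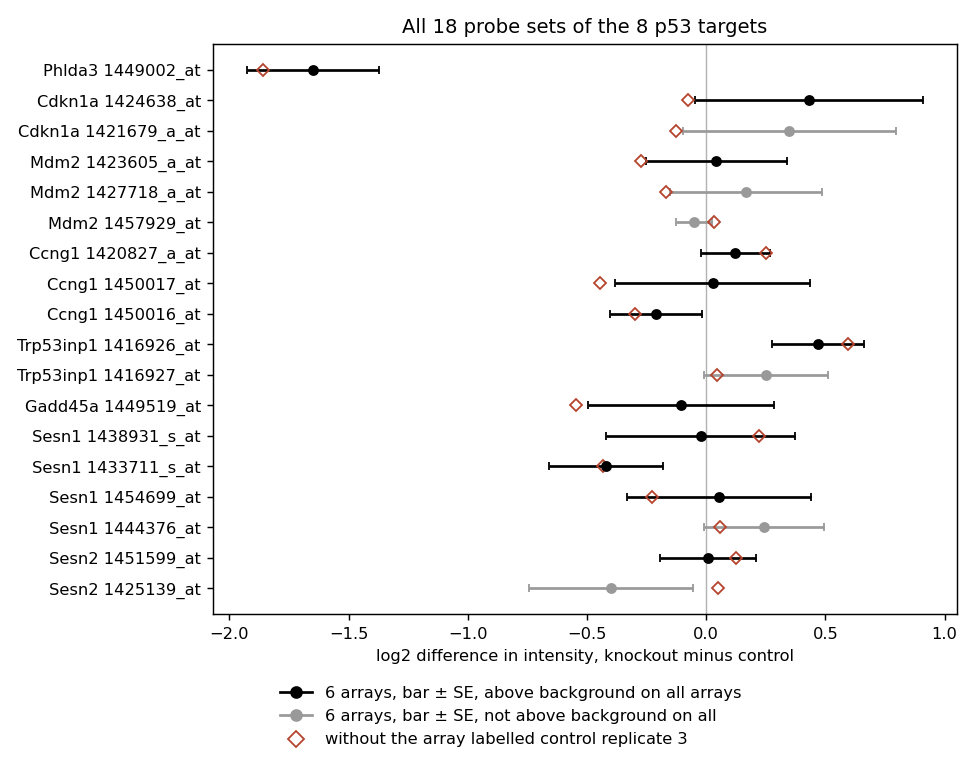
Log2 difference in intensity, knockout minus control, for all 18 probe sets, with bars of ± SE from the limma fit; grey sets were not above background on all arrays, and diamonds are the same difference without the array labelled control replicate 3. Phlda3 lies at -1.65 and the other sets between -0.42 and 0.47; the brightest sets of Cdkn1a and Mdm2 are above 0 with all arrays and below 0 without that array.

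Other genes of the pathway gave no call in either direction. Of 59 measured p53 relatives, regulators and other targets, 0 passed in limma, beside 0.0% of 18193 genes, and 6 had no overlap between the groups, beside 9.03%. Some of the 59 were not above background in either group. Trp53 itself was not analysed here. Mdm4, which binds and holds back p53, read 210.2, 189.3 and 192.7 in the knockout samples, against 201.5, 155.2 and 94.1 in the control samples (log2 difference 0.46 ± 0.30). The array labelled control replicate 3 was again lowest. The phosphatase gene Ppm1d, a p53 target that switches the response off, had 0.45 ± 0.49 with overlapping groups.

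Among other targets of cell death, 8 of 13 had higher and 5 lower values in the knockout, with a median log2 difference of 0.03. Only 9 of the 13 were above background in a group, and 4 were above it on no array, so these directions include values at the floor. Perp, a membrane protein, read 87.9, 86.4 and 74.5 in the knockout samples, against 99.1, 88.3 and 231.8 in the control samples. The control mean was set by the array labelled control replicate 3. Of 10 growth arrest targets 4 were higher and 6 lower (median -0.00), but only 4 of the 10 were above background in a group. The kinase gene Plk2 had a log2 difference of -0.69 ± 0.35, with 266.3 on the array labelled control replicate 3 and 84.4 to 120.2 on the others. Btg2, an antiproliferative gene, read 135.8, 174.8 and 169.5 in the knockout samples, against 90.7, 128.5 and 117.4 in the control samples, without overlap (0.52 ± 0.23).

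Of 6 repair genes, 5 of them above background in a group, 4 were higher and 2 lower, with a median of 0.15. Rrm2b, the p53-inducible subunit of ribonucleotide reductase, read 2043, 2091 and 2336 in the knockout samples, against 1762, 1659 and 1240 in the control samples. The groups did not overlap, and the log2 difference was 0.49 ± 0.17. Of 12 metabolic targets 4 were higher and 8 lower, with a median of -0.20. Lpin1, a phosphatidate phosphatase, read 1581, 2052 and 2024 in the knockout samples, against 2443, 2454 and 2157 in the control samples (-0.33 ± 0.15). Aldh4a1, an enzyme of proline breakdown, had -0.46 ± 0.24, also without overlap. Ddit4, an mTORC1 inhibitor that glucocorticoids also induce, was chosen after its values were seen and read 2213, 942.2 and 1345 in the knockout samples, against 181.5, 1040 and 504.6 in the control samples (1.63 ± 0.62). The groups overlapped there.

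No relative of the targets had separate groups. Phlda1, of the same pleckstrin homology family as Phlda3, read 364.6, 351.5 and 206.8 in the knockout samples, against 334.2, 351.5 and 127.8 in the control samples (0.27 ± 0.44), and Phlda2 had -0.03 ± 0.23. Of 14 relatives, including Cdkn1b, Cdkn1c, Ccng2, Trp53inp2, Gadd45b, Gadd45g, Sesn3, Bak1, Bcl2, Bcl2l1, Mcl1 and Bcl2l11, 0 passed and 0 were without overlap. Their log2 differences ran over -0.40 to 0.72. Among 18 genes of the insulin receptor, Akt and FoxO axis, on which the Phlda3 protein acts, 0 passed and 0 were without overlap, with log2 differences of -0.35 to 0.32 and a median of -0.04.

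**Figure D3:**
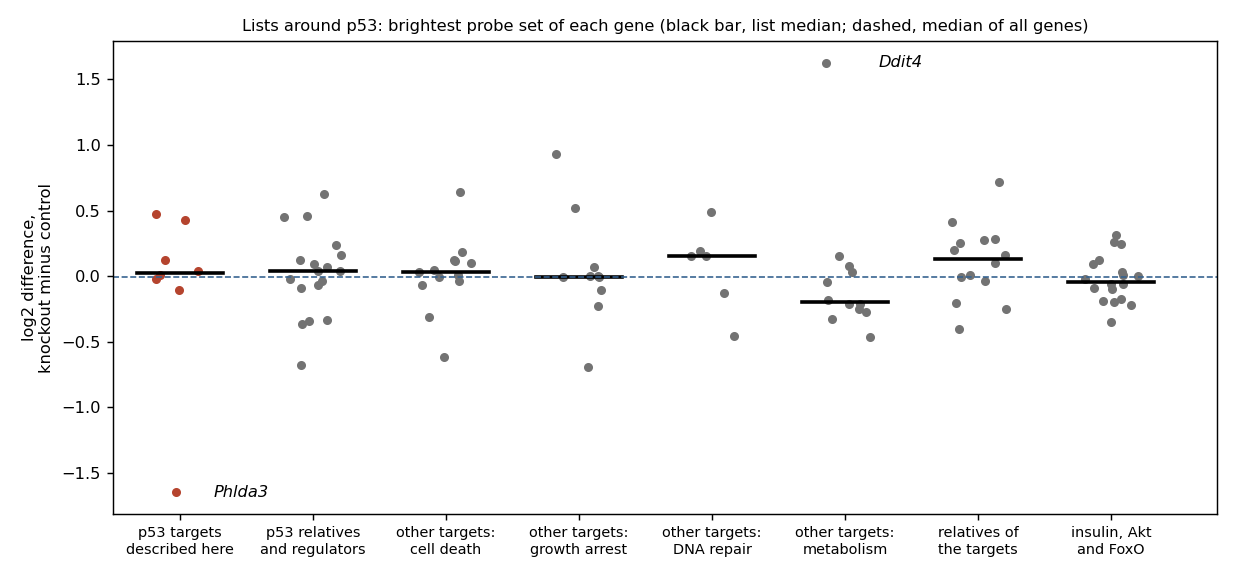
Log2 difference, knockout minus control, of the brightest probe set of each gene in 8 lists around p53, with the list medians as black bars and the median of all genes (-0.01) dashed. Phlda3 at -1.65 and Ddit4 at 1.63 are the genes beyond 1 log2 unit, and the list medians lie between -0.20 and 0.15.

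The neighbourhood of Phlda3 on chromosome 1 held further genes with separate groups. Of the 10 measured genes on each side in RefSeq order, 3 of 20 had no overlap, beside 9.03% of all genes, and 11 were above background. Shisa4, which encodes a membrane protein and is the fifth measured gene before Phlda3, read 1757, 1224 and 956.2 in the knockout samples, against 3448, 3435 and 2895 in the control samples. Its log2 difference was -1.35 ± 0.23, or 2.56-fold lower in the knockout. Next to it, Lmod1, an actin filament nucleator of smooth muscle, read 157.8, 173.3 and 212.6 in the knockout samples, against 92.3, 95.5 and 86.3 in the control samples (0.98 ± 0.20, 1.97-fold higher). The third was Lad1, which was below background. Csrp1 and Tnni1, directly before and after Phlda3, had log2 differences of 0.18 ± 0.22 and 0.19 ± 0.63 with overlapping groups. Around each of the other 7 measured targets, 0 to 5 of 20 neighbours were without overlap, with the 5 around Mdm2.

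**Figure D4:**
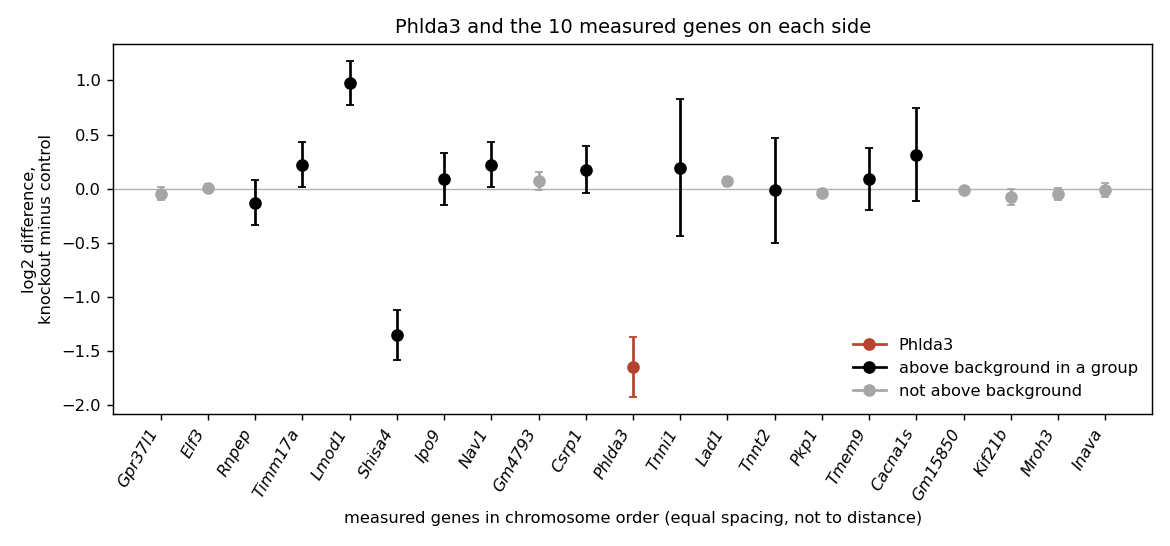
Log2 difference, knockout minus control, with bars of ± SE, for Phlda3 and the 10 measured genes on each side in chromosome order, spaced evenly. Phlda3 (-1.65) and Shisa4 (-1.35) lie low and Lmod1 (0.98) high, while every other gene in the window lies between -0.13 and 0.31.

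The genes whose log2 values ran most like those of Phlda3 over the 6 arrays were Cdc37, N4bp2, Abra, Vamp2, Tacc2 and Cyb561a3, with Pearson r of 0.98 to 0.99. They were picked among 10709 genes above background, of which 87 had r above 0.9. Abra, an actin-binding activator of transcription in muscle, read 1666, 1561 and 1984 in the knockout samples, against 2536, 2541 and 2078 in the control samples. Vamp2, a vesicle fusion protein, read 178.5, 180.8 and 240.8 in the knockout samples, against 358.9, 433.5 and 351.2 in the control samples. Asb5, Timmdc1 and Trim12c ran most opposite, with r of -0.99 to -0.98. All 9 genes had separate groups, and without the array labelled control replicate 3 each kept r at 0.977 or more in size. Both traits follow from the choice, since these genes were picked by r over the same arrays and Phlda3 by its group difference. Of the other p53 targets, Gadd45a had r = 0.40 and Ccng1 r = -0.59 with Phlda3 by their brightest probe sets. Without the array labelled control replicate 3 these were 0.86 and -0.83, and Mdm2 went from 0.19 to 0.67. Sesn2 went from -0.23 to -0.64, Sesn1 from -0.26 to -0.41 and Cdkn1a from -0.21 to -0.08. These r values describe arrays that share the 2 groups. Over 7 measured genes, dividing-cell markers had summed intensities of 601.2, 420.4 and 419.7 in the knockout samples, against 1102, 554.1 and 564.9 in the control samples. The groups overlapped, with knockout replicate 1 above control replicates 2 and 3. The mean was lower in the knockout for 6 of the 7 genes, and the other, Plk1, was above background on no array. Other cell types differed too. Adipocyte markers were higher in 5 of 5 (median log2 difference 0.35) and endothelial markers in 5 of 7 (0.38). Macrophage markers were lower in 6 of 8 (-0.11). Fibroblast and satellite cell lists were each split 3 and 3, and erythroid markers 1 and 1. The part of any of these cell types in the Phlda3 values was not tested.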

How the data were processed

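Quadriceps RNA of 6 samples was measured on 1 mouse expression array each. The authors deposited 1 intensity per probe set and array, on a linear scale, made with GCOS and RMA per the submitters' processing notes, with versions not given in the sources used here. Whether the authors converted them back from log2 is unknown. RMA draws dim values toward a floor, which compresses their differences.

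The 64 AFFX control probe sets were left out. The other 45037 were taken to log2 with no pseudocount. Limma 3.58.1 under R 4.3.3 was used for the fit (genotype group alone in the model, eBayes with its trend option, two-sided, Benjamini-Hochberg over all probe sets, threshold 0.05). A gene was represented by its brightest single-gene probe set. The platform annotation gave 34958 probe sets 1 gene symbol and 932 several, and did not list 9211. Background was the 95th percentile of 32 measured genes of other tissues, 66.9. The fit had limited power in a simulation: with 200 changed probe sets, all above background, it recovered 8 of 100 changed by 1 log2 unit. It recovered 54 of 100 changed by 2 log2 units, with 2 unchanged probe sets called. The simulated noise was normal and independent between probe sets. It held no array that stands apart, as the array labelled control replicate 3 does, so recovery in the real data may differ. The number of arrays was not varied there, so its part in this recovery was not tested. The labels name no individual mice, and the spread behind each p-value may therefore be technical in part.

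The members, lists and tests were chosen with earlier results of these data known. Named genes were the 9 targets, their relatives, Mdm4 and Ppm1d, the neighbours of Phlda3, the 9 genes most like or opposite to it, and up to 2 genes a list with the largest difference among those above background and without overlap. No regulator and no gene of the Akt list met the last condition. Alternatives covered normalization, variance model, filters, use of probe sets, array weights, sex, the Gapdh ratio, the replicate number and leaving out arrays.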

Additional observations from a re-analysis of the deposited data

How the results depend on the processing

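The Phlda3 difference kept its sign under all 20 alternatives, at -1.90 to -1.48, and leaving out one array gave -1.86 to -1.48. Some alternatives leave the difference fixed by design and change only its SE. For Phlda3, with a single probe set, these are the replicate block, sex over 6 arrays, both variance models, the background filter and both gene-level fits. They say nothing about its sign. Of the 17 other probe sets, 56 of 316 values under alternatives had another sign than the value in the report and 2 moved by more than 1 SD. That SD is the within-group SD over all 6 arrays, which the array labelled control replicate 3 widens for several sets. Gadd45a, at -0.11 in the report and -0.55 without that array, therefore does not count as moved. Many of the 316 values also come from alternatives that leave the difference fixed by design. The sign held under every alternative that gave a value for the brightest Trp53inp1 set (0.34 to 0.64), the second Sesn1 set (-0.65 to -0.29), the third Ccng1 set (-0.32 to -0.13) and the dimmest Sesn1 set (0.02 to 0.36). Limma called 0 probe sets in every alternative but array weights, which gave the array labelled control replicate 3 a weight of 0.107 and called 4, Phlda3 among them (log2 difference -1.75 ± 0.17, adjusted p = 0.0486 in limma). Under the other alternatives the adjusted p of Phlda3 was 0.376 to 1 in limma. It was chosen for this difference, so that call is no support. No other p53 target or regulator passed under any alternative.

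The fit of all 6 arrays gave 883 probe sets an unadjusted p under 0.05. That count was 4487 with array weights, 1518 without trend, 546 over probe sets above background, 469 with the brightest probe set of each gene, 459 with their mean, and 2575 with the Gapdh ratio as a covariate; the filter and both gene-level fits test fewer features. It was 3131 with sex and without the array labelled control replicate 3, and 2960 without both arrays with a high Gapdh ratio, an alternative chosen after seeing the data. Leaving out one array gave 554 to 2208, the lowest without knockout replicate 2 and the highest without the array labelled control replicate 3; without knockout replicate 3 it was 567. With the replicate number as a block it was 652, and the Phlda3 difference, which this block cannot change, was -1.65 ± 0.33. Deviations of same-numbered samples from their group means correlated at 0.19, -0.21 and -0.18. The array labelled control replicate 3 weighs on all of them, and the sex pattern was the same within each replicate number. Whether the numbers pair the samples therefore cannot be told from these values. The causes of these changes were not tested. Probe sets near the floor limit what can be read from Sesn2 and the dimmer sets.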
